A study of Homo sapiens with 18 samples.

Results

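The comparison described here sets mitochondria-depleted senescent fibroblasts that received both acetate and mtDNA against depleted cells that received neither. Its members were set by the library labels, at a time when earlier results of these data were known. They comprise 6 of the 18 RNA-seq libraries, 3 of each group, and the 16994 of 57500 genes that passed a filter on low counts. All 18 libraries come from IMR90 cells, an established line of human lung fibroblasts, here engineered so that the uncoupler CCCP triggers removal of their mitochondria. Cells of both groups were irradiated to make them senescent and then exposed to CCCP, and those given nothing more are labelled Senescence IR + CCCP. The treated group was also given sodium acetate repeatedly from the end of the CCCP treatment until collection and a transfection with mtDNA late in that time, and is labelled Senescence IR + CCCP+ mtDNA+ Acetate. Proliferating cells, irradiated cells with mitochondria, and depleted cells given acetate alone or mtDNA alone make up the other 12 libraries. The comparison measures the total effect of both agents. Whether untreated cells received the transfection reagent is not given in the sources used here, so mtDNA and the act of transfection cannot be told apart.

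DNA in the cytosol is sensed by the enzyme cGAS, whose product activates the adaptor STING, and STING in turn drives interferon-β and NF-κB signalling. Secreted interferon then acts on the same and neighbouring cells through STAT factors and switches on a large set of antiviral genes. Acetate is converted to acetyl-CoA, the donor for histone acetylation, and senescent fibroblasts are known for a secretory phenotype (SASP) of cytokines, chemokines and matrix proteases that depends on both chromatin state and NF-κB.

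The second replicate of the combination stood apart from the other 2. Between replicates 1 and 3 of the combination, 647 genes differed by at least 2-fold, against 924 between replicates 1 and 2 and 1015 between replicates 2 and 3, and against 454 to 572 between pairs of untreated libraries. Replicate 2 had more mRNA of many interferon-induced genes than replicates 1 and 3, and its share of counts on the 13 protein genes of the mitochondrial genome was 0.237%, against 0.0640% and 0.0624%. In untreated depleted cells that share was 0.122% ± 0.0116 (SD, n = 3), and in irradiated cells with mitochondria it was 2.11% ± 0.468 (SD, n = 3). What set replicate 2 apart was not tested. Values without it are given for the genes with the largest rises and falls and beside the counts that it moved most. Total counts on genes were 24624886 to 35655026 in the untreated libraries and 25013145 to 36703448 in the combination.

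The libraries carried the defining mRNAs of fibroblasts. All 12 fibroblast markers listed were measured, of which 7 were higher and 5 lower with both agents (median log2 fold change 0.37), and their part in the results was not tested. The collagen gene COL1A2 had 1299.5, 1310.1 and 1415 CPM (counts scaled to library size) in untreated libraries and 635, 935 and 658 CPM in the combination. Of 10 leukocyte markers, 8 did not pass the filter, among them the pan-leukocyte gene PTPRC, and the monocyte and macrophage genes CD14 and CD68 stayed at or under 1.97 CPM in all 6 libraries. Both of these rose with both agents, CD14 by 1.09 (edgeR adjusted p = 0.0398) and CD68 by 1.23 (edgeR adjusted p = 0.0013), and their part in the results was not tested. As these are bulk samples, fewer cells of a type and less RNA per cell cannot be told apart.

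Both agents together changed most of the measured transcriptome. By edgeR's quasi-likelihood test, with p adjusted over all genes and a threshold of 0.05, 5146 genes (30.3% of those tested) were higher and 5341 (31.4%) were lower than in untreated cells, 61.7% in all. Counts of list members higher or lower than in untreated cells are to be read against these shares. Changes of at least 2-fold were called for 1281 genes (7.54%) upward and 1505 genes (8.86%) downward. In 5426 genes (31.9%) all 3 combination libraries lay above all 3 untreated libraries, and in 5825 (34.3%) all 3 lay below. Changes given without a unit are log2 fold changes, and values given as 3 numbers are CPM in replicates 1, 2 and 3. For scale, acetate alone raised 4902 genes (28.8%) and lowered 4807 (28.3%), whereas mtDNA alone raised 1814 (10.7%) and lowered 1257 (7.4%). These 3 comparisons share the 3 untreated libraries, so their calls are not independent. The median log2 fold change of all genes tested was -0.04 for the combination, 0.01 for acetate and 0.00 for mtDNA.

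**Figure D1:**
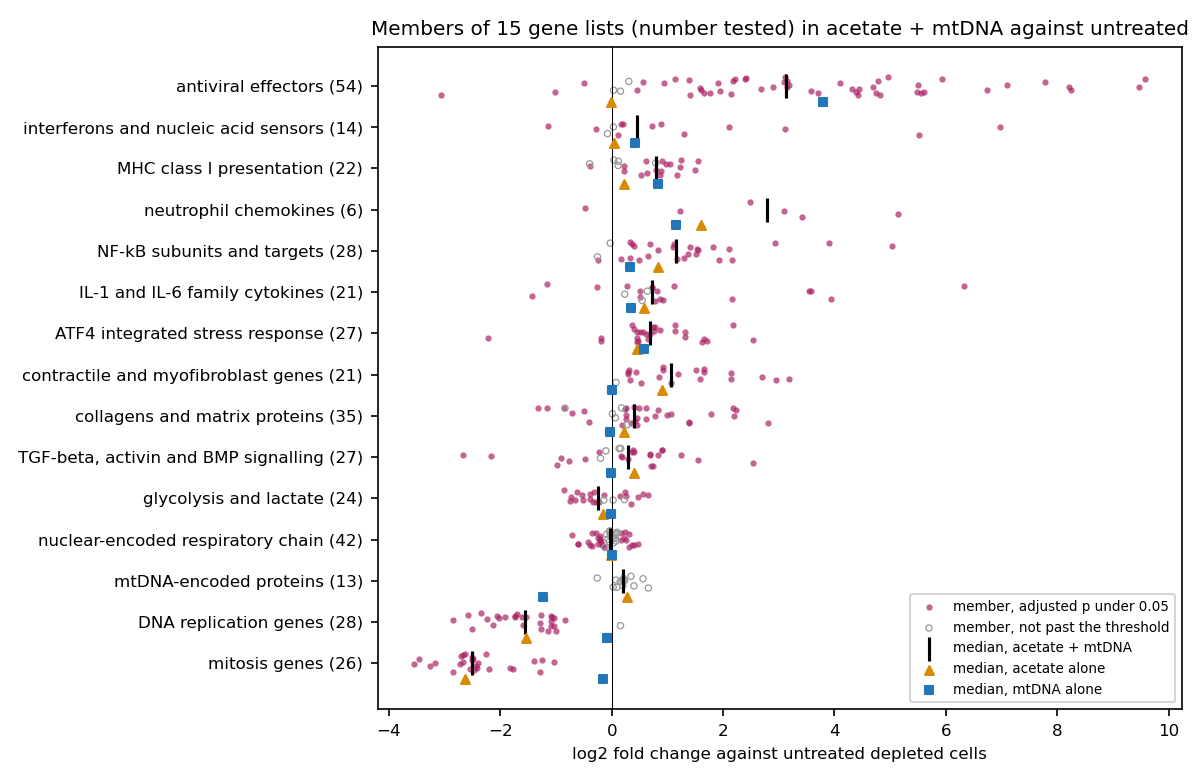
Each point is 1 gene of a list, placed by its log2 fold change between acetate + mtDNA and untreated depleted cells (n = 3 libraries each); filled points passed an adjusted p of 0.05, black bars are list medians, and triangles and squares are the medians for acetate alone and mtDNA alone. Antiviral effectors have a median of 3.13 and mitosis genes of -2.50, and the acetate median lies near 0 for the first and near the combination for the second.

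The 10 largest rises and falls were ranked among genes past the test with a symbol and at least 5 CPM in the higher group. Groups that do not overlap were also required, so non-overlap in these genes is not a finding. By this rule the largest rises were in interferon-induced genes, and all but 1 of the 10 belong to that response. RSAD2, which encodes the antiviral enzyme viperin, had 0.111, 0.177 and 0.181 CPM in the 3 untreated libraries and 27.4, 89.7 and 27.4 CPM in the combination (log2 fold change 8.22 ± 0.63 (SE), edgeR adjusted p = 2.12e-10). MX1, a GTPase that blocks viral replication, went from 0.920, 0.783 and 1.71 to 61.8, 325 and 62 CPM (log2 fold change 7.10 ± 0.61 (SE), edgeR adjusted p = 1.56e-09). Exons of MX1 overlap those of TMPRSS2 in GENCODE. For both genes combination replicate 2 lay above replicates 1 and 3. Without that library the log2 fold changes were 7.44 for RSAD2 and 5.85 for MX1.

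CXCL10, a chemokine that attracts T cells, measured 1.23, 1.29 and 1.63 CPM without treatment and 52, 229 and 53.8 CPM with both agents (log2 fold change 6.34 ± 0.57 (SE), edgeR adjusted p = 3.27e-09). Its relative CXCL11 was almost absent from untreated cells, at 0.0279, 0.0757 and 0.0363 CPM, and reached 7.46, 32.4 and 8.96 CPM (log2 fold change 8.24 ± 0.81 (SE), edgeR adjusted p = 1.18e-08). OASL, an interferon-induced relative of the oligoadenylate synthetases, measured 0.111, 0.101 and 0.109 CPM and then 17.3, 69.6 and 16.2 CPM (log2 fold change 8.25 ± 0.70 (SE), edgeR adjusted p = 1.31e-09). In each of these 3 genes replicate 2 was the highest of the combination libraries. The log2 fold changes without combination replicate 2 were 5.29 for CXCL10, 7.30 for CXCL11 and 7.26 for OASL.

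OAS2, an oligoadenylate synthetase, had 0.167, 0.126 and 0.218 CPM in untreated and 14.2, 86.1 and 13.3 CPM in combination libraries (log2 fold change 7.77 ± 0.87 (SE), edgeR adjusted p = 8.68e-08). CMPK2, a nucleotide kinase encoded next to RSAD2, had 0.223, 0.202 and 0.254 and 6.16, 30.3 and 6.48 CPM (log2 fold change 5.92 ± 0.68 (SE), edgeR adjusted p = 1.20e-07). With combination replicate 2 left out these values were 6.37 for OAS2 and 4.81 for CMPK2. Exons of CMPK2 and RSAD2 overlap on opposite strands in GENCODE, and whether these libraries kept the strand is not given in the sources used here. If they did not, some reads of the pair cannot be told apart. BST2, which tethers budding virus to the cell surface, had 1 count in the untreated group and 3.16, 26 and 3.22 CPM in the combination, a ratio of group counts of 969 (95% counting interval 173 to 38303). OAS1 had 3 counts in the untreated group and 7.55, 55.7 and 9.52 CPM in the combination, a ratio of 731 (95% counting interval 249.8 to 3549). The ratios without combination replicate 2 were 328 (58.3 to 13030.0) for BST2 and 289 (98.3 to 1405) for OAS1. These intervals cover counting error only, and both genes passed the test (1.38e-06 and 1.78e-07, edgeR adjusted p).

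IL1A, an alarmin cytokine of the SASP, was the 1 gene among the largest rises outside the interferon response. It had 0.474, 0.606 and 0.871 CPM in untreated libraries and 48.7, 58.3 and 45.8 CPM in the combination (log2 fold change 6.32 ± 0.16 (SE), edgeR adjusted p = 1.49e-17). Here the 3 combination libraries were close together, and the value was 6.23 without replicate 2. The same gene rose with acetate alone (log2 fold change 5.95, edgeR adjusted p = 7.04e-17) and by much less with mtDNA alone (1.15, edgeR adjusted p = 0.00439).

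**Figure D2:**
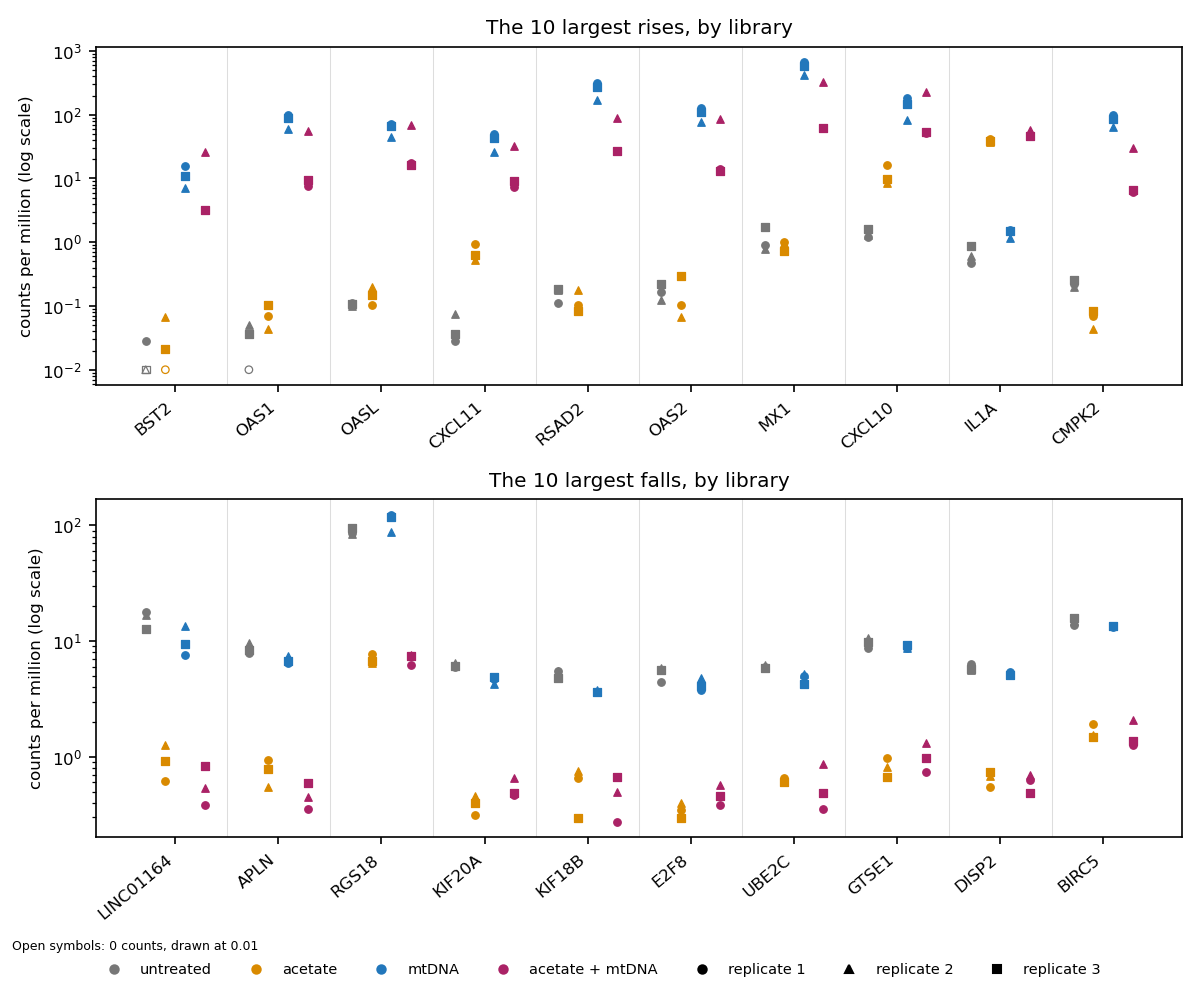
CPM on a log scale in each of the 12 depleted libraries for the 10 largest rises and the 10 largest falls. The ranking was among genes with at least 5 CPM in the higher group and groups that do not overlap. Colours mark the 4 groups and symbols the replicates, with no averaging. RSAD2 is at 27.4 CPM in combination replicates 1 and 3, 89.7 CPM in replicate 2 and at or below 0.181 CPM without treatment, and RGS18 is at or above 84.7 CPM without treatment and at or below 7.62 CPM with both agents.

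By the same rule, the largest falls were in genes of dividing cells and in several signalling genes. KIF20A, a kinesin of cytokinesis, had 5.91, 6.51 and 6.06 CPM in untreated libraries and 0.463, 0.656 and 0.490 CPM in the combination (log2 fold change -3.54 ± 0.15 (SE), edgeR adjusted p = 2.19e-14). Its exons overlap those of CDC23 and BRD8 in GENCODE. BIRC5, the mitotic protein survivin, had 13.7, 14.9 and 15.8 and 1.25, 2.09 and 1.37 CPM (log2 fold change -3.27 ± 0.12 (SE), edgeR adjusted p = 3.13e-15). For both genes the highest of the 3 treated libraries was replicate 2. UBE2C, the ubiquitin-conjugating enzyme that drives exit from mitosis, fell by 3.47 on the log2 scale, the kinesin gene KIF18B and the cell cycle repressor E2F8 each fell by 3.51, and GTSE1, expressed in the G2 and S phases, fell by 3.31.

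RGS18, a regulator of G-protein signalling, was the most abundant of the 10, with 85.7, 84.7 and 94.1 CPM in untreated libraries and 6.18, 7.62 and 7.39 CPM in the combination (log2 fold change -3.65 ± 0.12 (SE), edgeR adjusted p = 2.10e-16). APLN, which encodes the vasoactive peptide apelin, had 7.92, 9.52 and 8.31 and 0.354, 0.451 and 0.595 CPM (log2 fold change -4.22 ± 0.16 (SE), edgeR adjusted p = 3.84e-15). The long noncoding RNA LINC01164 had 17.8, 16.9 and 12.6 and 0.381, 0.533 and 0.840 CPM (log2 fold change -4.78 ± 0.26 (SE), edgeR adjusted p = 9.23e-13). All of these falls were also called with acetate alone, at -3.68 for RGS18, -3.55 for APLN and -4.03 for LINC01164. With mtDNA alone RGS18 was higher by 0.31 (edgeR adjusted p = 0.0213), whereas other genes among the 10 were lower, at -0.64 for LINC01164 (edgeR adjusted p = 0.0127), -0.32 for APLN (edgeR adjusted p = 0.026), -0.41 for KIF20A (edgeR adjusted p = 0.00714) and -0.52 for KIF18B (edgeR adjusted p = 0.0362). DISP2 fell by 3.28 with both agents. Leaving out combination replicate 2 changed the log2 fold change of the 10 falls by little, for example to -3.68 for KIF20A and -3.69 for RGS18.

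Most antiviral effectors rose. Of 54 genes tested, 48 were higher and 3 lower, with a median log2 fold change of 3.13, beside 30.3% higher and 31.4% lower over all genes and a median of -0.04. The median differences from the untreated mean were 2.39, 3.80 and 2.62 in combination replicates 1, 2 and 3, and 3.96, 3.56 and 3.83 in the 3 libraries given mtDNA alone. Without combination replicate 2 the list still had 48 genes higher and 4 lower, with a median of 2.60. Acetate alone raised 6 and lowered 5 of these genes (median -0.01), and mtDNA alone raised 51 (median 3.80).

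The most abundant antiviral effector was EIF2AK2, the RNA-activated kinase that shuts down translation, with 178, 192 and 190.3 CPM in untreated libraries and 514, 829 and 565 CPM in the combination (log2 fold change 1.77 ± 0.12 (SE), edgeR adjusted p = 1.63e-11). ISG15, a ubiquitin-like modifier and a standard marker of interferon action, had 4.60, 4.82 and 4.43 and 47.8, 142 and 49.6 CPM (log2 fold change 4.09 ± 0.31 (SE), edgeR adjusted p = 2.35e-10). The cytidine deaminase genes APOBEC3B (-3.07) and APOBEC3C (-0.49) were among those that fell. The APOBEC3 genes are near-identical copies in part, so reads may be shared between them. TRIM22 (0.31, edgeR adjusted p = 0.0717), APOBEC3F (0.16, edgeR adjusted p = 0.416) and APOBEC3G (0.03, edgeR adjusted p = 0.943) did not pass.

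The promoters of ISG15 and CXCL10 are shown because they are short examples of the element through which interferon-activated factors act, the ISRE, searched here as GAAA, any 2 bases, GAAA on either strand. They give the 250 bases before the RefSeq start of each gene on GRCh38.p14, at chr1:1013247-1013496 (plus strand) for ISG15 and chr4:76023498-76023747 (minus strand) for CXCL10. Capitals mark matches, and the pair was chosen because it holds them: the same 250 bases of RSAD2 and OAS1 hold no match. Other spellings and spacings of the element were not searched, so the lack of a match does not mean that the element is absent. In this pair, ISG15 has 2 that overlap.
ISG15: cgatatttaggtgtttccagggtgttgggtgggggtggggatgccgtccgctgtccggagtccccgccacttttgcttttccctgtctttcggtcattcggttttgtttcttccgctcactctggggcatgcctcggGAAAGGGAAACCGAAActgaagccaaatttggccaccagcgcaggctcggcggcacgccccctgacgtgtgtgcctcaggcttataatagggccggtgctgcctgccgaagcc
CXCL10: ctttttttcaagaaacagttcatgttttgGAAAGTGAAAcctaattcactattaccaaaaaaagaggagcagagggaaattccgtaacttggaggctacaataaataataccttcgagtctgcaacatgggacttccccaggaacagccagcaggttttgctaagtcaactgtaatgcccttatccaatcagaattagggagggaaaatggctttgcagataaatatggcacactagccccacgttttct
In the 300 bases around the start (250 before and 50 after), the letters occurred in 29 of the 40 antiviral effectors that the promoter table holds (72.5%), in 62 of 763 genes at least 2-fold higher with both agents (8.13%), in 22 of 795 at least 2-fold lower (2.77%), in 337 of 11166 genes tested (3.02%) and in 996 of all 27305 promoters (3.65%). A match is a stretch of letters and was not tested for binding.

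IFNB1, the gene for interferon-β itself, had 0 counts in the 3 untreated libraries and 0.109, 1.23 and 0.210 CPM in the combination, at least 15.3-fold higher when the untreated group is set to a floor of 3 counts (edgeR adjusted p = 0.00162). Most of the mRNA came from replicate 2, and without that library the bound was 5.26-fold (edgeR adjusted p = 0.00215). Of the 20 interferon and sensor genes listed, 14 were tested, and 10 were higher and 2 lower (median 0.46).

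Within that list the cytosolic RNA sensors rose. IFIH1, which encodes MDA5, had 2.09, 3.13 and 2.79 CPM in untreated libraries and 68.7, 234 and 68.7 CPM in the combination (log2 fold change 5.52 ± 0.40 (SE), edgeR adjusted p = 9.99e-11). RIGI, the sensor of viral RNA ends listed in the files as DDX58, had 46.9, 43.5 and 44.2 and 224, 710.4 and 229 CPM (log2 fold change 3.11 ± 0.29 (SE), edgeR adjusted p = 4.14e-09), and DHX58 rose by 2.10. TLR3, the RNA sensor of endosomes, did not pass (0.03, edgeR adjusted p = 0.941), and with mtDNA alone it rose by 3.03 (edgeR adjusted p = 6.30e-09).

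Members of the DNA-sensing pathway moved in different directions. STING1, the adaptor downstream of cGAS and listed in the files as TMEM173, fell from 29.9, 30.8 and 28.2 to 12.7, 15.9 and 12 CPM (log2 fold change -1.14 ± 0.09 (SE), edgeR adjusted p = 6.40e-10), and it fell by the same order with acetate alone (-1.25). CGAS, the sensor, had 12, 14.8 and 13.9 and 13, 14.5 and 11.2 CPM, groups that overlapped (log2 fold change -0.08 ± 0.10 (SE), edgeR adjusted p = 0.513). IFI16, a further DNA sensor, rose from 127, 130.0 and 128 to 185, 327 and 198 CPM (log2 fold change 0.88 ± 0.13 (SE), edgeR adjusted p = 4.22e-06). TREX1, the exonuclease that degrades cytosolic DNA, was listed at 0 in all 12 depleted libraries, and its exons overlap those of ATRIP on the same strand in GENCODE, so its reads may have been left out of the counts.

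IRF, STAT and SOCS genes, the factors and feedback inhibitors of the interferon response, were higher in 11 and lower in 2 of 17 cases (median 0.46), beside 30.3% and 31.4% over all genes. IRF7, the factor that amplifies interferon production, had 0.641, 0.631 and 0.907 CPM in untreated libraries and 5.83, 15.2 and 6.30 CPM in the combination (log2 fold change 3.64 ± 0.34 (SE), edgeR adjusted p = 5.50e-09). STAT4 rose by 2.10, and with acetate alone it rose by 1.62 (edgeR adjusted p = 9.72e-04).

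Genes that present peptides on MHC class I were higher in 16 and lower in 1 of 22 cases, with a median of 0.79. PSMB9, a subunit of the immunoproteasome, had 2.90, 2.73 and 3.52 and 7.27, 12.4 and 7.11 CPM (log2 fold change 1.54 ± 0.20 (SE), edgeR adjusted p = 7.06e-07). NLRC5, the activator of MHC class I transcription, had 5.85, 6.51 and 5.77 and 9.53, 32.1 and 11 CPM (log2 fold change 1.5 ± 0.30 (SE), edgeR adjusted p = 1.54e-04), a value that was 0.77 without combination replicate 2. CANX, the most abundant member and a chaperone of the endoplasmic reticulum, did not pass (0.11, edgeR adjusted p = 0.0747). Without replicate 2 the list had 14 higher and 1 lower.

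The chemokines that interferon or NF-κB induce moved in both directions. Of 18 listed, 10 were tested, 4 were higher (CXCL10, CXCL11, CCL5 and CCL20) and 3 lower (CCL3, CXCL12 and CXCL16). CCL5, which attracts T cells and monocytes, had 0 counts in untreated cells and 1.06, 2.38 and 0.805 CPM in the combination, at least 46-fold higher against the floor (edgeR adjusted p = 8.20e-08) and at least 32.6-fold without combination replicate 2. CCL20, the ligand of CCR6, had 0.111, 0.202 and 0.0726 and 2.91, 2.91 and 1.61 CPM (log2 fold change 4.16 ± 0.41 (SE), edgeR adjusted p = 1.42e-08). CCL2, a monocyte attractant of the SASP, did not pass, with 4.49, 3.74 and 4.79 CPM in untreated and 2.45, 5.45 and 2.38 CPM in combination libraries (log2 fold change -0.39 ± 0.27 (SE), edgeR adjusted p = 0.23). The median of the list was -0.50. Without combination replicate 2, CCL2 was lower than in untreated cells (-0.81, edgeR adjusted p = 0.00843), and the list had 4 higher and 5 lower of 10 tested (median -0.73).

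Chemokines that attract neutrophils rose together with the exception of CXCL5. Of 6 tested, 5 were higher and 1 lower, with a median of 2.79. CXCL8, the principal neutrophil attractant of the SASP, had 13.9, 13.8 and 12.3 CPM in untreated libraries and 512, 409 and 501 CPM in the combination (log2 fold change 5.14 ± 0.13 (SE), edgeR adjusted p = 1.49e-17). Replicate 2 was the lowest of the 3 for this gene, the reverse of its place among the interferon genes. CXCL1 had 0.167, 0.151 and 0 and 0.844, 2.01 and 1.19 CPM (log2 fold change 3.42 ± 0.47 (SE), edgeR adjusted p = 1.81e-06), CXCL2 rose by 2.49 and CXCL3 by 1.23, while CXCL5 fell from 7.94, 7.15 and 7.48 to 6.24, 5.37 and 4.34 CPM. CXCL6 passed on very few reads, with 0, 0 and 0.0363 and 0.109, 0 and 0.210 CPM, groups that overlapped.

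NF-κB subunits, feedback inhibitors and targets were higher in 25 and lower in 1 of 28 cases (median 1.15), and acetate alone gave 22 and 1 (median 0.83) and mtDNA alone raised 18 (median 0.32). ICAM1, an adhesion receptor for leukocytes, went from 7.80, 8.10 and 9.07 to 242, 333 and 245 CPM (log2 fold change 5.04 ± 0.16 (SE), edgeR adjusted p = 1.90e-16). VCAM1, a further adhesion receptor, went from 1.11, 1.14 and 1.60 to 13.3, 31.6 and 13.1 CPM (log2 fold change 3.91 ± 0.36 (SE), edgeR adjusted p = 5.03e-09). BIRC3, an inhibitor of cell death and ubiquitin ligase of the pathway, went from 16.2, 16.8 and 13.7 to 122, 117 and 119 CPM (log2 fold change 2.93 ± 0.08 (SE), edgeR adjusted p = 5.72e-17), with nearly equal values in the 3 treated libraries. Exons of ICAM1 overlap those of noncoding genes on the opposite strand.

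SOD2, the manganese superoxide dismutase of mitochondria and a known NF-κB target, was the most abundant member, at 297, 313 and 305 CPM in untreated and 1018, 1209 and 986 CPM in combination libraries (log2 fold change 1.81 ± 0.07 (SE), edgeR adjusted p = 5.57e-15). The inhibitor gene NFKBIA rose by 1.55, TNFAIP3 by 1.93 and the subunit gene RELB by 1.53. RELA, which encodes the p65 subunit, fell by 0.24 on the log2 scale (edgeR adjusted p = 3.48e-05). Without combination replicate 2 the list had 23 genes higher and 1 lower, with a median of 0.95.

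The promoters of CXCL8, IL6 and ICAM1 are shown as examples of the κB element, searched as GGANTTTCC on either strand and marked in capitals. They are the 250 bases before the RefSeq start on GRCh38.p14, at chr4:73740319-73740568 (plus strand) for CXCL8, chr7:22726950-22727199 (plus strand) for IL6 and chr19:10270870-10271119 (plus strand) for ICAM1. They were chosen because they hold a match, and the same 250 bases of VCAM1, IL1A and BIRC3 do not hold these exact letters. Other spellings of the element were not searched, so the lack of a match does not mean that the element is absent.
CXCL8: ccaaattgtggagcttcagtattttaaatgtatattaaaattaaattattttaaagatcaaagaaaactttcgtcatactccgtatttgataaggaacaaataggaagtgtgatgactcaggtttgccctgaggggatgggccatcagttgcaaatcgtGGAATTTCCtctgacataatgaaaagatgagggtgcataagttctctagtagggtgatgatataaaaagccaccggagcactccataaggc
IL6: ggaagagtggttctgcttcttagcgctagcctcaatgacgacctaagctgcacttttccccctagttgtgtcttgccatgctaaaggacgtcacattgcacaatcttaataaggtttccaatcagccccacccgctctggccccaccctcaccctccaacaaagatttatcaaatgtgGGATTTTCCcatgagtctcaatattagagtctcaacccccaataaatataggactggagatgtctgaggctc
ICAM1: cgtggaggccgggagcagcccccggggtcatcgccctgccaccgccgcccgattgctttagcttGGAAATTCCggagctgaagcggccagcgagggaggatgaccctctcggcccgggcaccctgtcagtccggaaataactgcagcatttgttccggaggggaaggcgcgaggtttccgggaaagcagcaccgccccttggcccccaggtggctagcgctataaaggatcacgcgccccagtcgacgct
The letters occurred in the 300-base window of 6 of the 6 neutrophil chemokine genes tested, of 7 of 24 NF-κB genes in the table (29.2%), of 31 of 763 genes at least 2-fold higher (4.06%), of 5 of 795 at least 2-fold lower (0.629%), of 180 of 11166 genes tested (1.61%) and of 449 of all 27305 promoters (1.64%).

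Cytokines of the IL-1 and IL-6 families were higher in 15 and lower in 3 of 21 genes tested, with a median of 0.73. IL6, a central SASP cytokine, had 18.6, 18 and 17.9 CPM in untreated libraries and 198, 256 and 185 CPM in the combination (log2 fold change 3.55 ± 0.12 (SE), edgeR adjusted p = 7.58e-16). Exons of an antisense transcript, IL6-AS1, overlap IL6 in GENCODE, and reads of the pair cannot be told apart if the libraries did not keep the strand. IL1B, the inflammasome-processed partner of IL1A, had 5.41, 4.65 and 5.81 and 61.9, 68.4 and 58.4 CPM (log2 fold change 3.58 ± 0.11 (SE), edgeR adjusted p = 2.10e-16).

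CSF2, the growth factor GM-CSF, had 0.474, 0.606 and 0.617 and 8.94, 8.16 and 8.96 CPM (log2 fold change 3.94 ± 0.16 (SE), edgeR adjusted p = 6.66e-15). The receptor subunit gene IL6ST was the most abundant member and rose by 0.50 (edgeR adjusted p = 1.49e-09). LIF, a cytokine that signals through IL6ST, rose by 0.77, and IL11 by 0.73. For IL1A, IL1B and CSF2 acetate alone gave 5.95, 3.41 and 3.59, and mtDNA alone gave 1.15, 0.26 and 0.15, of which IL1B and CSF2 did not pass with mtDNA alone (edgeR adjusted p = 0.205 and 0.768).

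Contractile and myofibroblast genes rose as a group. Of 21 tested, 20 were higher (median 1.06). Acetate alone raised 18 (median 0.90), and with mtDNA alone 1 passed, which was lower (median 0.01). LMOD1, a smooth muscle actin-binding protein, had 2.70, 2.42 and 3.45 and 18.8, 39.6 and 19.5 CPM (log2 fold change 3.19 ± 0.24 (SE), edgeR adjusted p = 1.61e-10). ACTG2, an enteric smooth muscle actin, had 21.9, 20.3 and 20.9 and 94.7, 222 and 95.8 CPM (log2 fold change 2.70 ± 0.22 (SE), edgeR adjusted p = 5.41e-10). ACTA2, the smooth muscle actin that defines myofibroblasts, had 35.8, 38.8 and 41.3 and 134, 240.3 and 135 CPM (log2 fold change 2.13 ± 0.15 (SE), edgeR adjusted p = 8.40e-11). Replicate 2 was again the highest, and without it the list had 19 genes higher and a median of 0.92.

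CCN2, connective tissue growth factor, rose from 207, 198 and 216 to 859.9, 1053 and 842 CPM (log2 fold change 2.15 ± 0.10 (SE), edgeR adjusted p = 3.30e-14), and CALD1, which encodes caldesmon, rose at a much higher level, from 1329, 1365 and 1364 to 2643, 3066 and 2762 CPM (log2 fold change 1.06 ± 0.05 (SE), edgeR adjusted p = 1.52e-13). Collagens and matrix proteins were higher in 24 and lower in 6 of 35 cases (median 0.39). LUM, the collagen-binding proteoglycan lumican, rose from 23.7, 22.6 and 29.4 to 106, 126 and 108 CPM, BGN (biglycan) from 1.73, 2.22 and 2.14 to 9.78, 11.1 and 7.74 CPM and COL11A1 from 5.49, 4.80 and 5.26 to 18.4, 33.9 and 19.6 CPM. Fibrillar collagens of types I and III went the other way, with log2 fold changes of -0.50 for COL1A1, -0.85 for COL1A2 and -1.32 for COL3A1. COL6A3, the most abundant matrix gene, rose by 0.61.

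Among TGF-β, activin and BMP genes, 16 of 27 were higher and 7 lower (median 0.28). GDF15, a stress-induced cytokine of that superfamily, rose from 82.4, 86.9 and 78 to 539, 420.1 and 472 CPM (log2 fold change 2.53 ± 0.09 (SE), edgeR adjusted p = 1.69e-15), and BMP2 from 253, 248 and 274 to 795, 690.3 and 772 CPM (log2 fold change 1.54 ± 0.08 (SE), edgeR adjusted p = 1.58e-13). INHBB, an activin subunit, fell from 7.92, 8.0 and 7.80 to 1.36, 0.984 and 1.33 CPM (log2 fold change -2.66 ± 0.17 (SE), edgeR adjusted p = 9.91e-12). Without combination replicate 2, 16 were higher and 4 lower.

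Matrix proteases and their inhibitors were higher in 17 and lower in 7 of 26 cases (median 0.38), beside 30.3% and 31.4% over all genes. MMP3, stromelysin, fell from 37.9, 39.5 and 34.9 to 16.4, 10.3 and 14.5 CPM (log2 fold change -1.43 ± 0.10 (SE), edgeR adjusted p = 8.01e-11), while MMP1, the interstitial collagenase, rose by 0.39. ADAMTS19 fell by 3.80, ADAMTS4 rose by 1.51 and MMP17 by 1.5, and the inhibitor TIMP3, the most abundant, rose by 0.62 (0.35 without replicate 2).

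Growth factors of the IGF, EGF and VEGF groups were higher in 15 and lower in 6 of 30 cases, beside 30.3% and 31.4% over all genes. PDGFB, a mitogen for mesenchymal cells, rose from 0.753, 0.959 and 0.363 to 11.1, 13 and 11.5 CPM (log2 fold change 4.02 ± 0.20 (SE), edgeR adjusted p = 1.43e-13). EREG (epiregulin) rose by 1.90, the lymphangiogenic factor VEGFC by 1.81, and the abundant IGF-binding protein IGFBP5 from 2139, 2251 and 2220.3 to 6013, 8264 and 6499 CPM (1.65). In prostaglandin synthesis 7 of 14 genes were higher and 3 lower, beside the same shares over all genes. PTGS2, the inducible cyclooxygenase, rose from 17.9, 17.3 and 16.6 to 80.1, 93.2 and 81.9 CPM (log2 fold change 2.30 ± 0.10 (SE), edgeR adjusted p = 1.33e-14), the constitutive PTGS1 by 1.45 and the synthase PTGES by 2.26, whereas PTGES3 fell by 0.28.

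Every one of the 26 mitosis genes tested was lower, each by at least 2-fold, with a median of -2.50. The median differences from the untreated mean were -2.71, -2.02 and -2.58 in the 3 combination libraries, -2.53, -2.52 and -2.62 with acetate alone and -0.20, -0.16 and -0.15 with mtDNA alone. MKI67, the proliferation marker Ki-67, had 28.9, 32.4 and 30.0 and 3.51, 6.23 and 4.66 CPM (log2 fold change -2.70 ± 0.13 (SE), edgeR adjusted p = 1.90e-13). TOP2A, the topoisomerase of mitotic chromosomes, had 99.6, 114 and 115 and 15.8, 26.7 and 20.2 CPM (log2 fold change -2.41 ± 0.11 (SE), edgeR adjusted p = 3.15e-14). CDC20, the activator of the anaphase-promoting complex, had 5.32, 5.98 and 5.44 and 0.545, 0.615 and 0.700 CPM (log2 fold change -3.18 ± 0.15 (SE), edgeR adjusted p = 1.34e-13). For MKI67 and TOP2A replicate 2 was the least lowered of the 3, and without it the list median was -2.71, with all 26 still lower.

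The promoter of CDC20 is shown as an example of the cell cycle genes homology region (CHR), searched as TTTGAA on either strand, and is the 250 bases before the RefSeq start on GRCh38.p14 at chr1:43358731-43358980 (plus strand), with its 2 matches in capitals. The same 250 bases of KIF20A do not hold these exact letters, and other spellings of the element were not searched.
CDC20: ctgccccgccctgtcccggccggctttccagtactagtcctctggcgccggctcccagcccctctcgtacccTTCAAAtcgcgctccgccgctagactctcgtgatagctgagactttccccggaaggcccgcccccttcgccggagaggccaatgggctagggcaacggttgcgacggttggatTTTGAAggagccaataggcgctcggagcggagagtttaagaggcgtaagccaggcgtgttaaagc
The letters occurred in the 300-base window of 13 of 20 mitosis genes in the table (65.0%), 141 of 795 genes at least 2-fold lower (17.7%), 61 of 763 at least 2-fold higher (7.99%), 1119 of 11166 tested and 4212 of all 27305 promoters (15.4%).

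DNA replication genes were lower in 27 of 28 cases (median -1.56). RRM2, the subunit of ribonucleotide reductase that limits nucleotide supply in S phase, was the most abundant, with 211, 224 and 223 CPM in untreated and 24.5, 40.2 and 27.1 CPM in combination libraries (log2 fold change -2.85 ± 0.12 (SE), edgeR adjusted p = 9.42e-15). MCM10, an origin-firing factor, fell from 12.3, 12.2 and 13.5 to 1.83, 2.25 and 2.31 CPM and the cyclin gene CCNE2 from 23, 23.4 and 23.7 to 3.24, 5.04 and 4.24 CPM. With mtDNA alone 3 of the list were lower.

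Genes that mark the senescent state were higher in 11 and lower in 7 of 20 cases, beside 30.3% and 31.4% over all genes. CDKN1A, which encodes the inhibitor p21, rose from 1104, 1131 and 1066 to 1817, 1706 and 1751 CPM (log2 fold change 0.68 ± 0.05 (SE), edgeR adjusted p = 1.33e-10). CDKN2B, the inhibitor p15, rose from 44.3, 42.8 and 41.3 to 167, 185 and 171 CPM (log2 fold change 2.02 ± 0.05 (SE), edgeR adjusted p = 1.49e-17), its neighbour CDKN2A by 0.46 and CDKN1B by 1.02. LMNB1, the lamin lost in senescence, fell from 11.8, 14.6 and 13.4 to 3.46, 2.95 and 3.54 CPM (log2 fold change -1.99 ± 0.10 (SE), edgeR adjusted p = 3.45e-13). Targets of p53 were higher in 10 and lower in 7 of 25 cases (median 0.04), again beside 30.3% and 31.4% over all genes, and nothing is read from that count. PMAIP1, the death promoter NOXA, rose by 1.29, the death receptor TNFRSF10B by 0.97, and TP53I3 fell by 0.99.

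Genes of the ATF4 integrated stress response, which supplies amino acids and tRNA charging under stress, were higher in 24 and lower in 3 of 27 cases (median 0.68). ASNS, asparagine synthetase, had 108, 106 and 100.3 and 352, 324 and 351 CPM (log2 fold change 1.71 ± 0.05 (SE), edgeR adjusted p = 2.15e-16). CHAC1, which degrades glutathione, had 17.6, 18.4 and 17.2 and 84.8, 81.7 and 72.7 CPM (log2 fold change 2.17 ± 0.08 (SE), edgeR adjusted p = 1.81e-15). TRIB3, a pseudokinase that restrains the response, had 33.5, 33.5 and 30.0 and 101, 103 and 93.2 CPM (log2 fold change 1.61 ± 0.06 (SE), edgeR adjusted p = 2.66e-15). The 3 libraries of the combination were close together in this list, with median differences from the untreated mean of 0.65, 0.67 and 0.66.

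STC2, the most abundant gene of that list, rose by 0.68. The 3 members that fell were ATF4 itself (-0.19), whose protein is known to be set mostly by translation, the amino acid transporter subunit SLC3A2 (-0.20), and ATF5, a factor of mitochondrial stress, from 49.3, 57.3 and 53.5 to 13.4, 9.67 and 10.9 CPM (log2 fold change -2.22 ± 0.09 (SE), edgeR adjusted p = 1.35e-14). Acetate alone raised 22 and mtDNA alone 24 of the 27.

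Of 26 genes tested that make and use acetyl-CoA, 5 were higher and 6 lower (median -0.02), shares below those of all genes. ACSS2, which makes acetyl-CoA from acetate in the cytosol and nucleus, had 16.3, 14.5 and 14.7 and 18.9, 20.7 and 16.8 CPM (log2 fold change 0.31 ± 0.08 (SE), edgeR adjusted p = 0.00144), ACLY, which makes it from citrate, fell by 0.32, and the mitochondrial ACSS3 rose by 1.37. FASN, fatty acid synthase, fell by 0.74 and the kinase gene PDK2 rose by 0.61, while ACSL4, the most abundant, did not pass (-0.11, edgeR adjusted p = 0.123). Histone acetylases, deacetylases and bromodomain genes were higher in 12 and lower in 14 of 36 cases, beside 30.3% and 31.4% over all genes, and nothing is read from that count. The deacetylase HDAC5 rose from 10.4, 13.3 and 10.9 to 34.1, 30.4 and 29.9 CPM, HDAC10 fell from 9.06, 6.74 and 7.62 to 3.73, 3.11 and 3.47 CPM, SIRT7 fell by 1.09 and the reader BRD2 by 0.71.

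Glycolysis genes were lower in 14 and higher in 7 of 24 cases (median -0.25). LDHA, lactate dehydrogenase, fell from 2513, 2618 and 2505 to 1559, 1145 and 1531 CPM (log2 fold change -0.85 ± 0.08 (SE), edgeR adjusted p = 1.42e-08), GAPDH by 0.51, GPI by 0.73 and the monocarboxylate transporter SLC16A4 by 0.75. Nuclear-encoded subunits of the respiratory chain were higher in 10 and lower in 16 of 42, beside 30.3% and 31.4% over all genes, and nothing is read from that count. Among them NDUFS3 fell by 0.70, NDUFA9 by 0.61, ATP5MC1 by 0.60 and ATP5F1B by 0.17.

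None of the 13 protein genes of the mitochondrial genome passed edgeR's test with all libraries (median 0.20). At an unadjusted p under 0.05 the count was also 0 with edgeR and 0 with DESeq2. By contrast, limma voom with weights for library quality called 9, and their direction is not given here. MT-CO1, a subunit of cytochrome oxidase, had 238, 207 and 201 CPM in untreated libraries and 122, 439 and 121 CPM in the combination (log2 fold change 0.07 ± 0.30 (SE), edgeR adjusted p = 0.844). MT-ND4, of complex I, had 218, 193 and 183 and 117, 467 and 116 CPM (log2 fold change 0.23 ± 0.32 (SE), edgeR adjusted p = 0.546). For both genes replicate 2 lay above all untreated libraries and replicates 1 and 3 below them. Without replicate 2 all 13 were lower than in untreated cells (median -0.77), and with mtDNA alone 11 were lower (median -1.23). The share of counts on these genes differed by -0.00122 percentage points between the groups (exact permutation test, two-sided, p = 1, smallest possible p = 0.1). Nuclear copies of these genes can share reads with them.

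**Figure D3:**
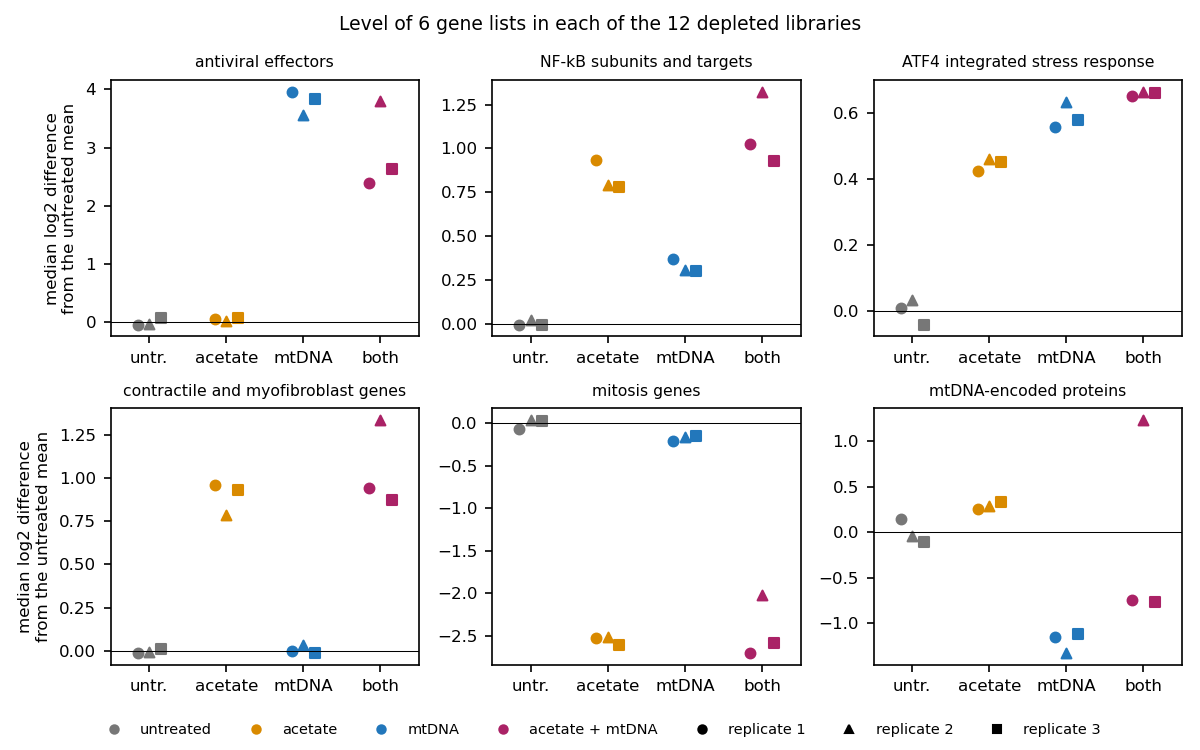
Median difference of the genes of 6 lists from the mean of the untreated libraries, on the log2 scale, in each of the 12 depleted libraries; colours mark groups and symbols replicates. Replicate 2 of the combination (triangle) is at 3.80 for antiviral effectors, against 2.39 and 2.62 in the other 2, and is the one combination library above 0 for mtDNA-encoded proteins.

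Death ligands and receptors, caspases and BCL-2 family genes were higher in 12 of 24 cases, and the others did not pass (median 0.28). TNFSF10, the death ligand TRAIL, rose from 0.0557, 0 and 0.218 to 1.88, 8.24 and 1.54 CPM (log2 fold change 5.5 ± 0.81 (SE), edgeR adjusted p = 4.42e-06), TNFRSF1B by 1.34 and the survival factor MCL1, the most abundant, by 0.39. Of immune checkpoint and NK ligands 5 of 15 were higher and 4 lower, beside 30.3% and 31.4% over all genes, and nothing is read from that count. CD274, the checkpoint ligand PD-L1, rose from 39.3, 39.5 and 37.5 to 162, 313 and 166 CPM (log2 fold change 2.46 ± 0.17 (SE), edgeR adjusted p = 4.29e-11). The costimulatory ligand TNFSF9 fell by 1.40 and the NK ligand ULBP3 by 1.36, and CD47 did not pass (0.01, edgeR adjusted p = 0.923).

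AP-1 and C/EBP factors were higher in 13 and lower in 6 of 22 cases, beside 30.3% and 31.4% over all genes. BATF2, an interferon-induced member, rose from 0.920, 0.808 and 1.13 to 6.70, 28.6 and 6.30 CPM (log2 fold change 3.84 ± 0.48 (SE), edgeR adjusted p = 4.41e-07) and KLF6, the most abundant, by 0.42 (0.24 without replicate 2), whereas EGR3 fell by 1.34.

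Whether both agents together went beyond each alone was tested gene by gene. The combination was above untreated, acetate and mtDNA cells, each with an adjusted p under 0.05, for 452 genes (2.66% of those tested), and below all 3 for 325 genes (1.91%). Leaving out acetate replicate 2 or 3 brought the first count to 247 and 256 and the second to 174 and 187, and leaving out combination replicate 2 brought the second to 210. The first count depends on the scaling, as DESeq2's size factors in edgeR gave 735.

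Among genes with at least 5 CPM in the highest group, TNFSF15, a TNF-family cytokine that acts on endothelium and T cells, had the largest margin over the nearer single treatment. It measured 1.31, 1.39 and 1.27 CPM in untreated cells, 8.54, 6.06 and 6.15 with acetate, 3.04, 2.84 and 3.1 with mtDNA and 17.5, 28.2 and 19.9 with both. The combination exceeded acetate by 1.67 on the log2 scale (edgeR adjusted p = 3.69e-08) and mtDNA by 2.86 (edgeR adjusted p = 1.57e-12). All 3 combination libraries lay above all 9 others.

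For CD274 acetate and mtDNA gave nearly equal rises, with 105, 108 and 101 and 113, 84.1 and 109.9 CPM, and the combination, at 162, 313 and 166 CPM, exceeded them by 1.03 and 1.06 (edgeR adjusted p = 1.56e-04 and 6.96e-06). VCAM1 measured 10.8, 5.44 and 6.80 CPM with acetate, 6.69, 3.34 and 5.33 with mtDNA and 13.3, 31.6 and 13.1 with both, so it exceeded them by 1.35 and 1.88 (edgeR adjusted p = 0.00162 and 9.89e-06). IL6 measured 145, 116 and 112 CPM with acetate, 71.6, 54 and 66.3 with mtDNA and 198, 256 and 185 with both, an excess over acetate of 0.78 (edgeR adjusted p = 3.95e-05) and over mtDNA of 1.73 (edgeR adjusted p = 1.58e-11). In IL6 too the lowest library of the combination was above the highest of either single treatment.

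ACTG2 had 85.2, 67.5 and 83.3 CPM with acetate and 28, 25.3 and 23.9 with mtDNA, and its excess over acetate was 0.80. The TGF-β anchor LRRC32 exceeded acetate by 0.93, the heparan sulfatase SULF1 by 0.76, the glycosyltransferase B3GALT2 by 0.91, and AC092807.3 by 0.80, its nearer single treatment. Mean CPM in untreated cells and with both agents was 0.528 and 1.90 for LRRC32 and 0.156 and 0.843 for B3GALT2. PTGIS, prostacyclin synthase, was listed at 0 in the 3 libraries given mtDNA alone, and had 0.449, 0.154 and 0.210 CPM with acetate and 0.463, 0.779 and 0.560 CPM with both. With combination replicate 2 left out, PTGIS and B3GALT2 were no longer called above both single treatments, and the other 8 of the 10 were. The ranked genes had to reach 5 CPM in the highest of all 6 groups. LRRC32, B3GALT2, PTGIS and AC092807.3 reached it only in cells with mitochondria, outside the groups compared.

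Among genes below both single treatments, ABCB6, a porphyrin transporter, had 14.2, 12.5 and 12.4 CPM in untreated libraries, 5.56, 7.27 and 6.97 with acetate, 7.30, 7.29 and 7.53 with mtDNA and 3.57, 3.61 and 4.38 with both. Its exons overlap a second gene model on the same strand. TRIM52, a ubiquitin ligase gene, had 30.2, 25.6 and 25.5 CPM in untreated and 8.99, 7.5 and 8.12 CPM in combination libraries and was -0.77 against acetate. COQ4, of coenzyme Q synthesis, was -0.65 against acetate and -0.71 against mtDNA, and HDAC10 was -0.83 and -0.65. Differences from the nearer single treatment for the rest were -0.82 for AC015813.1, -0.81 for TMEM100, -0.75 for the zinc finger gene MZF1, -0.70 for AL354719.2, -0.68 for the mitotic gene CDCA3 and -0.63 for the nucleolar gene NOL12. Without combination replicate 2, TMEM100 and AL354719.2 were no longer called below both. TMEM100 reached 5 CPM only in proliferating cells.

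**Figure D4:**
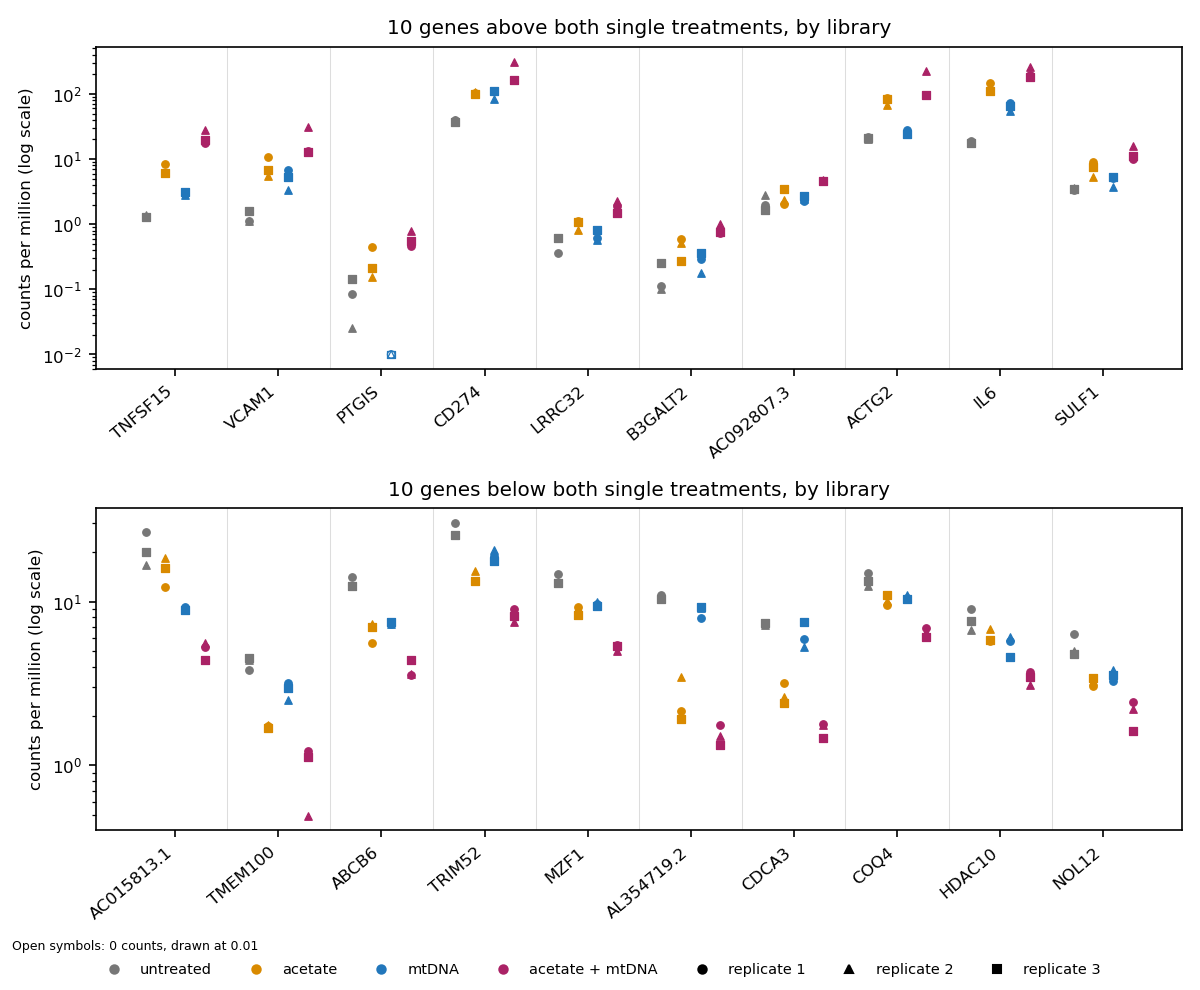
CPM on a log scale in each of the 12 depleted libraries for the 10 genes with the largest margin above both single treatments and the 10 with the largest margin below them; colours mark the 4 groups and symbols the replicates. TNFSF15 is at 17.5 to 28.2 CPM with both agents and at or below 1.39 CPM without treatment.

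Antiviral genes did not follow that pattern. Against mtDNA alone the combination was lower for 43 and higher for 2 of the 54 antiviral effectors (median -0.78, beside 29.9% lower and 27.4% higher over all genes), and without combination replicate 2 it was lower for 52 (median -1.47). RSAD2 had 309, 169 and 275 CPM with mtDNA alone and was -2.40 with both relative to that (edgeR adjusted p = 2.73e-07). NF-κB genes had the opposite balance against mtDNA alone, with 21 higher and 2 lower of 28. Against acetate alone the 2 lists went the same way, with 48 antiviral effectors and 11 NF-κB genes higher and 0 lower in either. Over all genes 6.57% were higher and 6% lower against acetate alone.

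An interaction term asked whether the response to mtDNA differed between cells with and without acetate, on the log2 scale, where 0 means that the 2 effects add. It passed for 112 genes (0.659% of those tested), below 0 for 99 (0.583%) and above 0 for 13 (0.0765%). When combination replicate 2 was left out it was below 0 for 331 and above 0 for 72 of 17497 genes (2.3%). Of 27 ATF4 genes, 17 were below 0 and 0 above, with values from -0.99 to -0.30. ASNS rose by 1.43 with acetate, 1.27 with mtDNA and 1.71 with both, an interaction of -0.99 ± 0.07 (SE, edgeR adjusted p = 1.63e-07). TRIB3 rose by 1.16, 1.28 and 1.61, an interaction of -0.83 ± 0.08 (SE, edgeR adjusted p = 1.03e-05). The ATF4 count was 18 without combination replicate 2 and 14 to 18 when any one of the 12 libraries was left out.

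Members of the NF-κB list with an interaction below 0 were ICAM1 with an interaction of -1.11 (edgeR adjusted p = 0.00735), BIRC3 with -0.77 (edgeR adjusted p = 0.00141) and RELB with -0.63 (edgeR adjusted p = 0.0497). RELB did not pass whichever untreated, acetate-alone or mtDNA-alone library was left out. IL6 was above both single treatments, and its log2 fold change with both was below the sum of the 2 single log2 fold changes, which says nothing of the sum on the CPM scale, with an interaction of -1.04 ± 0.16 (SE, edgeR adjusted p = 0.00249). For antiviral effectors the call depended on 1 library. With all libraries 3 of 54 had an interaction below 0, IFI6 at -2.55, RTP4 at -3.54 and APOBEC3F at -1.20, and without combination replicate 2 the number was 41.

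**Figure D5:**
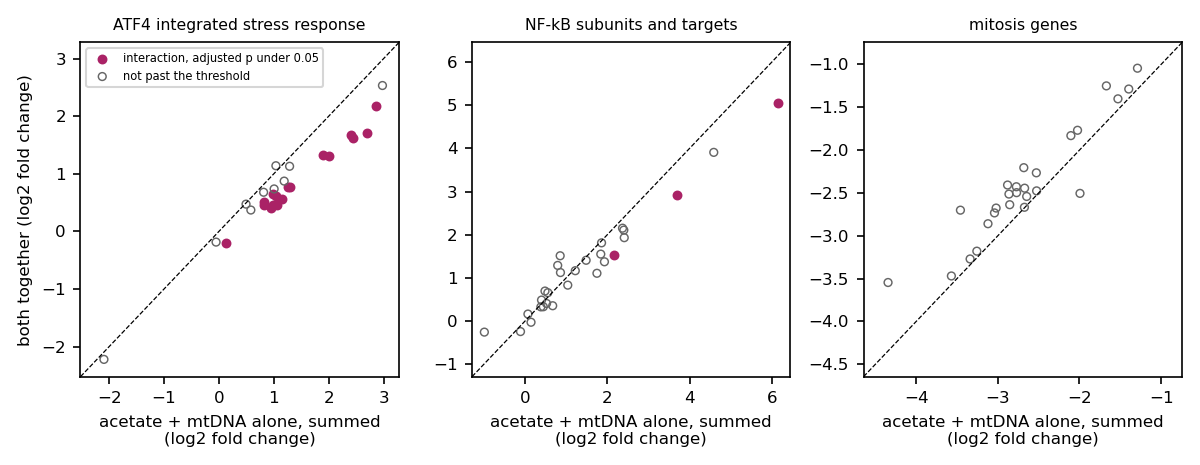
Log2 fold change with both agents against the sum of the log2 fold changes with acetate alone and mtDNA alone, 1 point per gene, for 3 lists; the dashed line marks equality and filled points have an interaction with an adjusted p under 0.05. The filled points of the ATF4 list, 17 of 27, all lie below the line.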

How the data were processed

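RNA-seq of 18 libraries, 3 in each of 6 groups, was analysed from the table of counts that the authors deposited, with groups taken from the sample labels. Per the labels, the submitters' processing notes name Trimmomatic 0.36, STAR 2.5.2b, featureCounts, Subread 1.5.2 and GRCh38. The counts are whole, unnormalised reads per gene, and the authors also deposited TPM values, scaled for gene length and library size, which were used for no test. The columns that match no sample number 0. The study's methods say that strand was used in counting where a library was strand-specific, but whether these libraries were is not given in the sources used here.

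Genes were filtered with filterByExpr by group, scaled by TMM and tested with edgeR 4.0.16 (limma 3.58.1, R 4.3.3) by the quasi-likelihood test with a mean for each of 6 groups over all 18 libraries and Benjamini-Hochberg adjustment over 16994 genes, after the scripts were tested on simulated data. The study describes its replicates as independent experiments, while the labels do not say whether they are separate cultures, and p-values measure the spread between these samples. CPM are counts divided by TMM-scaled library size. SE is the absolute log2 fold change divided by the square root of the quasi-likelihood F statistic, as the test gives no standard error. This SE is unreliable for very small changes, as for the B3GALT2 interaction, 0.009 with an SE of 2.04. Gene positions and exon overlaps came from GENCODE, and promoters from RefSeq on GRCh38.p14. Promoters were matched by symbol, or by Ensembl ID where the symbol differed, and were found for 11166 of the 16934 tested genes that have a symbol. Counts of the lists are those of a test over all genes.

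The members and the gene lists were chosen with earlier results of these data known. The genes named were the 10 largest rises and falls with non-overlapping groups and at least 5 CPM, the 3 largest changes and the most abundant member of each list, the 10 genes farthest above or below both single treatments (at least 5 CPM in the highest of the 6 groups), and 11 SASP and cell cycle genes. Other list members, including ISG15, CDC20, ASNS, TRIB3, MT-ND4, TREX1, IFI6, APOBEC3F, RTP4, RELB, MMP1, MMP3 and SLC3A2, were named after their values were seen. Some genes that the rule names are not reported here. Same-numbered replicates of the 2 groups had deviations that correlated at -0.00579, -0.0227 and -0.0178, so the numbers were not taken to pair libraries. The alternatives were DESeq2's size factors, the DESeq2 1.42.0 Wald test, limma voom with library quality weights, dropping the low-count filter, a stricter one (a minimum of 10 reads per library), a fit of only the libraries compared, the replicate number as a block, and leaving out each library.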

Additional observations from a re-analysis of the deposited data

Results flagged for a closer look

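For 20 of the genes named, the response to mtDNA differed between cells with and without acetate, by edgeR's test of the interaction with p adjusted over all genes. Of these, 11 were named by rule and the others after their values were seen, so nothing is read from the count. All of these interactions were below 0, and over all genes 99 of the 112 that passed (0.659% of those tested) were below 0. Among ATF4 genes, ASNS had -0.99 (adjusted p = 1.63e-07), TRIB3 -0.83 (adjusted p = 1.03e-05), CHAC1 -0.70 (adjusted p = 0.00249) and SLC3A2 -0.32 (adjusted p = 0.0395). Among inflammatory genes, IL6 had -1.04 (adjusted p = 0.00249), ICAM1 -1.11 (adjusted p = 0.00735), BIRC3 -0.77 (adjusted p = 0.00141), RELB -0.63 (adjusted p = 0.0497) and CXCL10 -3.33 (adjusted p = 0.0424).

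Among the antiviral genes IFI6 had -2.55 (adjusted p = 0.0194), RTP4 -3.54 (adjusted p = 0.0351) and APOBEC3F -1.20 (adjusted p = 0.00831). RTP4 was not tested where at least 10 counts were required in every library compared, and the DESeq2 Wald test gave it no adjusted p. The matrix protease genes MMP1 and MMP3 had -0.47 and -0.91 (adjusted p = 0.0254 and 0.00252). The growth factor genes EREG and VEGFC had -0.61 and -0.47 (adjusted p = 0.00369 and 0.026). CDKN2B, the cell cycle inhibitor p15, had -0.59 (adjusted p = 1.17e-04) and PMAIP1, the death promoter NOXA, -0.51 (adjusted p = 0.0251). AKR1B1, the aldose reductase, had -0.34 (adjusted p = 0.0398), and ATP6V0D2, a subunit of the proton pump of lysosomes, -0.95 (adjusted p = 0.0288). Leaving out single libraries raised the adjusted p of AKR1B1, ATP6V0D2, CXCL10, IFI6, MMP1, PMAIP1, RELB, RTP4, SLC3A2 and VEGFC above 0.05 in some cases, and the highest was that of RTP4, 0.305, without acetate replicate 3. RELB and SLC3A2 did not pass whichever untreated, acetate-alone or mtDNA-alone library was left out. CXCL10 passed in those fits only without mtDNA replicate 2. With DESeq2's size factors in edgeR the adjusted p was 0.0784 for AKR1B1, 0.0762 for SLC3A2, 0.0740 for RELB and 0.052 for CXCL10. With only the libraries compared it was 0.102 for CXCL10, 0.083 for RTP4, 0.061 for IFI6 and RELB and 0.0559 for PMAIP1.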

How the results depend on the processing

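Against untreated cells, 5004 to 5149 genes were higher and 4617 to 4956 lower when 1 library of the 6 was left out, and over all alternatives the upward share of calls was 47.76 to 52.09%, against 49.07%. At least 2-fold lower genes fell to 800 from 1505 when at least 10 counts were required in every library, a setting that tests fewer genes (13899). The number above both single treatments went from 452 to 735 with DESeq2's size factors in edgeR, 809 with the DESeq2 Wald test and 724 with limma voom, and ranged from 247 to 494 when 1 library was left out. The number below both ranged from 174 to 290 in the same way, against 325. Interactions past the threshold among the genes named by rule numbered 11, and 18 with the DESeq2 Wald test, 26 with limma voom, 40 with no filter on low counts and 6 to 26 without 1 library (26 without combination replicate 2, and 6 without untreated replicate 3 or acetate replicate 1). The causes were not tested.

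With the replicate number as a block, 5143 genes were higher, 5349 lower, 490 above both single treatments and 339 below both, and 12 named interactions passed, so the block moved no count by over 1.5 times. The pairing of libraries by number is not given in the labels. CCL2 was lower without combination replicate 2, with limma voom and with no filter on low counts. EGR3 and ATP5F1B lost their calls without untreated replicate 2 and combination replicate 3. The difference in the mtDNA share ranged from -0.0591 to 0.0281 percentage points when 1 library was left out. Depth limits genes with few counts, such as IFNB1 and BST2, and 3 libraries per group cannot reach an exact permutation p below 0.1.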

Other observations

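Further gene groups moved in both directions with acetate plus mtDNA. Of 17 WNT ligands and inhibitors, 4 were higher and 8 lower (median -0.27, beside -0.04 over all genes). DKK1, a secreted WNT inhibitor, had 59.2, 60.0 and 51.5 CPM in untreated and 11.8, 9.14 and 11.6 CPM in combination libraries (log2 fold change -2.38 ± 0.10 (SE), edgeR adjusted p = 1.35e-14), and LEF1, a transcription factor of the pathway, had 19.9, 21 and 21.4 and 8.99, 7.70 and 9.73 CPM (log2 fold change -1.23 ± 0.08 (SE), edgeR adjusted p = 1.10e-11). Both genes had groups that did not overlap.

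NRF2 targets and metallothioneins were higher in 13 and lower in 6 of 26 cases. NQO1, a quinone reductase, rose from 229, 242 and 251 to 824, 694 and 787 CPM (log2 fold change 1.68 ± 0.06 (SE), edgeR adjusted p = 7.06e-16) and AKR1B1, which also belongs to the osmotic response, from 189, 184 and 193 to 739, 739 and 718 CPM (log2 fold change 1.96 ± 0.06 (SE), edgeR adjusted p = 6.52e-17), while OSGIN1 fell by 1.75. In the osmotic list 6 of 10 were higher and 3 lower, and AQP3, a water and glycerol channel, fell by 1.68. Cholesterol synthesis and handling genes were higher in 12 and lower in 6 of 25 cases, beside 30.3% and 31.4% over all genes. STARD4, a cholesterol carrier, had 22.7, 23.1 and 21.2 and 75.4, 115 and 78.8 CPM (log2 fold change 2.00 ± 0.12 (SE), edgeR adjusted p = 5.17e-12). Lysosomal genes were higher in 11 and lower in 9 of 29, and cytosolic ribosomal protein genes in 6 and 13 of 37. Over all genes 30.3% were higher and 31.4% lower, and nothing is read from these 2 counts. Of the markers of other cell types, 2 of 5 epithelial and 3 of 5 neural markers tested were higher, and 2 neural and 1 of 4 endothelial markers were lower.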
